A study of Mus musculus with 4 samples.

Results

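Foxo1, Foxo3 and 8 genes tied to antioxidant defence were followed on microarrays of mouse haematopoietic stem cells (HSCs) labelled Hif1a-/- or wild-type (WT). Foxo1 and Foxo3 encode FoxO transcription factors. The 8 were Sod1, Sod2, Cat, Gclc, Gclm, Nqo1, Hmox1 and Txnip, which encodes an inhibitor of thioredoxin. The genes were chosen by name and looked up by symbol. All 10 were measured, each by 1 probe set, among 19938 genes on the arrays. Cells from mice labelled Hif1a-/- (2 arrays) were set against cells from WT mice (2 arrays), to ask how loss of Hif1a, which encodes the HIF-1 subunit that is degraded when oxygen is plentiful, changes expression in these cells. All mice were C57BL/6 (B6) and 8 weeks old, and the sorted bone-marrow cells were Lin-c-Kit+Sca-1+, meaning that they lacked lineage markers and carried c-Kit and Sca-1. That gate also holds multipotent progenitors. The labels do not say how or in which cells Hif1a was deleted, nor whether animals were pooled, and they give no treatment. The arrays are described as biological replicates and are numbered 1 and 2 in each genotype, without a statement of what a number stands for, so the p-values measure only the spread between these arrays.

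FoxO proteins are transcription factors that growth-factor signalling through PI3K and AKT keeps out of the nucleus. In the nucleus they switch on genes of cell cycle arrest, autophagy and protection from reactive oxygen species, among them Sod2 and Cat. Txnip, another of their targets, encodes an inhibitor of thioredoxin and so is not itself protective. Mouse HSCs that lack FoxO factors accumulate oxidants and lose quiescence. A second arm of the defence runs through NRF2, the product of Nfe2l2, which KEAP1 holds back until oxidants release it and which then induces Gclc, Gclm, Nqo1 and Hmox1 through antioxidant response elements. Hmox1 is in addition a known target of HIF-1 and is repressed by BACH1.

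Promoter sequences are shown for 4 members: Foxo1, which had the smallest p of the members between the genotype labels, and Foxo3, Txnip and Gclm, which separated the array numbers. Those of Cat and Sod2, which like Foxo1 separated the genotype labels, are not printed. Each is the 250 bases before the start site, 5′ to 3′ on the gene's strand, from RefSeq on GRCm38.p6, and capitals mark motif matches on either strand.
Foxo1, chr3:52268087-52268336, plus strand: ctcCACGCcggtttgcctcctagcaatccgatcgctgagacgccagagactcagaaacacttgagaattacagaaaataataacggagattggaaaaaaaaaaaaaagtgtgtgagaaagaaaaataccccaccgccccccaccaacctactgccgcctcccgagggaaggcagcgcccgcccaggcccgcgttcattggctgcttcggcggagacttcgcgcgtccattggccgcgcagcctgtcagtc
Foxo3, chr10:42276696-42276945, minus strand: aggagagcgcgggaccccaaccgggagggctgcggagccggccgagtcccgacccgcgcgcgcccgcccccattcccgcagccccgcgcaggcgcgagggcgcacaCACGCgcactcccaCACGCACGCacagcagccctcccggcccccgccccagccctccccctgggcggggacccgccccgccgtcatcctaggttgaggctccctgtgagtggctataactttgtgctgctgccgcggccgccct
Txnip, chr3:96557707-96557956, plus strand: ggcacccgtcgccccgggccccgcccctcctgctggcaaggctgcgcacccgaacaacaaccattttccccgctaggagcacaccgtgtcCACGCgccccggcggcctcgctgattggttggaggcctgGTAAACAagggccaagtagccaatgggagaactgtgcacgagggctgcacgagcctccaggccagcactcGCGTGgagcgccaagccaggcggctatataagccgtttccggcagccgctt
Gclm, chr3:122245307-122245556, plus strand: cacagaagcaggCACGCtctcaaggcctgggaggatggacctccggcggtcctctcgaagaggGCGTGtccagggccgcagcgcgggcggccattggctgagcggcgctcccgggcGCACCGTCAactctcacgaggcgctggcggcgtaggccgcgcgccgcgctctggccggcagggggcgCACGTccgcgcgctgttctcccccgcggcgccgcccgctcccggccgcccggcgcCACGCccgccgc

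The motifs searched were a FoxO site (GTAAACA), the core of the antioxidant response element (TGACNNNGC) and the core of the hypoxia response element (ACGTG or GCGTG). Of the 8 members with a sequence, 1 held the FoxO site, namely Txnip, with its first base 121 bases before the start. Of all 32851 windows of this length 3.17% held it. The antioxidant core lay in Gclm, from 134 bases before the start, and in Sod1, against 10.2% of all windows. The hypoxia core lay in 6 of the 8 (Foxo1, Foxo3, Sod1, Sod2, Txnip and Gclm), against 38.6% of all windows. Both of its words hold the letters CG, and these 6 windows were 56.0% (Foxo1) to 78.4% (Gclm) G or C. The windows of Cat and Nqo1, without a match, were 62.0% and 53.2%. The share over all windows was not matched for G and C, so the counts do not show an excess. In Foxo3 a pair of its 3 hypoxia matches shared 1 base, and in Sod1 a hypoxia match overlapped the antioxidant match. Such matches describe letters in these windows and do not show binding.

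The deposited values were RMA log2 signals. Hif1a itself had 10.58 and 10.64 in the arrays labelled Hif1a-/- and 10.37 and 10.99 in the WT arrays, so the groups overlapped. A probe set can lie outside a deleted part, so this does not check the label. Kit, which defines the gate, had log2 signals of 11.32 to 12.37 in the arrays labelled Hif1a-/- and of 11.51 to 12.57 in WT arrays, and Ly6a, which encodes Sca-1, was not analysed here. The number of an array separated the arrays more than the genotype label did. In limma, with genotype as a term, 1108 of 19938 genes (5.56%) differed between the numbers, 656 higher and 452 lower in number 2, or 338 higher and 102 lower when each array was centred on its median. Without the dimmest 40% of genes 625 were higher and 442 lower of 11963, a larger share. The members and most lists below are brighter than all genes, and the part of brightness in their counts between the numbers was not tested. All 14 neutrophil granule markers were higher in number 2, and the log2 of their summed signal was 16.58 and 16.22 in number 2 (the array labelled Hif1a-/-, then the WT array) against 15.01 and 15.28 in number 1. The mast cell and basophil sum was 14.57 and 14.53 in number 2 against 13.32 and 13.12 in number 1, with 9 of 10 markers higher. For 8 monocyte and macrophage markers, all higher, it was 14.19 and 14.11 in number 2 against 13.05 and 13.03 in number 1. Of 8 measured stem and progenitor markers of the gate 6 were lower, with sums of 13.59 and 14.05 in number 2 and 14.78 and 14.91 in number 1. Other lists moved as well: 8 of 8 T and NK cell markers and 8 of 9 erythroid markers were higher in number 2. Of the B-lineage markers 7 of 9 were lower in number 2, as were 4 of 5 megakaryocyte markers. Over all 19938 genes 8886 were higher and 11052 lower in number 2. Each member is therefore given by genotype and by number.

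None of the 10 members differed between the genotypes past the threshold, and the pattern across members was mixed. In limma 0 of the 10 had an adjusted p under 0.05, as for 0% of the 19938 genes, and 0 of the 10 had an unadjusted p under 0.05, against 0.727% (145) of all genes. With the replicate number as a block 3 of the 10 had an unadjusted p under 0.05, against 2.40% of all genes, and again none passed after adjustment. In the mean 3 members were higher (Foxo1, Hmox1 and Cat) and 7 lower under the Hif1a-/- label. The median difference was −0.11 log2 units, beside 0.00 for all genes and −0.05 for all genes but the dimmest 40%. The members' median was 0.08 within number 1 and −0.24 within number 2, and turned to 0.06 without array 2 labelled Hif1a-/-. Leaving out an array makes the numbers unequal between the genotypes, so differences between the numbers enter such values. The labelled pair lay wholly above the WT pair for Foxo1 and Cat, as for 16.1% of all genes, and wholly below it for Sod2, as for 8.33%. With 10 members, such counts differ little from those shares of all genes.

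**Figure D1:**
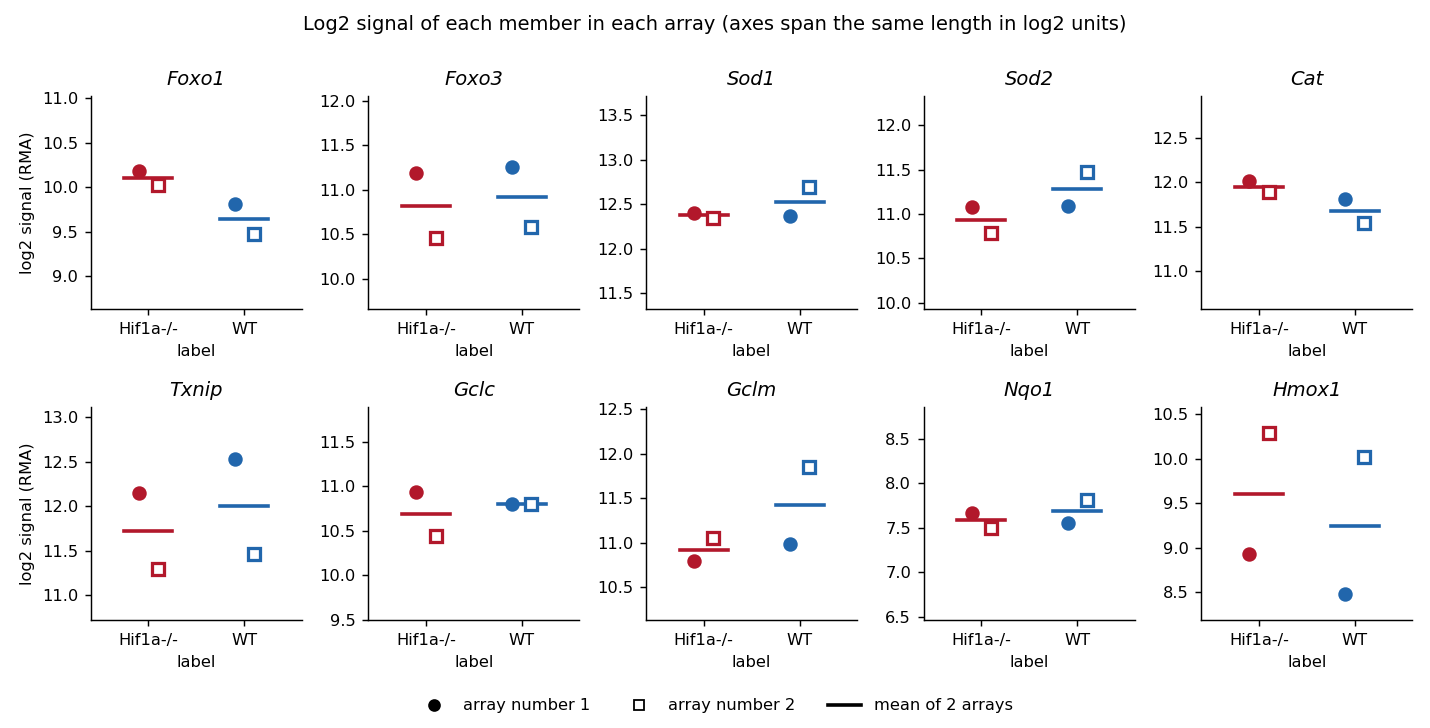
Log2 signal (RMA) of each of the 10 members in each array, with the arrays labelled Hif1a-/- on the left and the WT arrays on the right of each panel. Filled circles are arrays of number 1, open squares arrays of number 2, and bars are means of 2 arrays. Foxo1 and Cat lie higher in both arrays labelled Hif1a-/-, whereas Foxo3, Txnip and Hmox1 split by array number in both genotypes.

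Foxo1, which in lymphoid cells drives early B-cell genes as well as acting in HSCs, was the member with the smallest p between the genotypes. Its log2 signal was 10.18 and 10.02 in the arrays labelled Hif1a-/- (numbers 1 and 2), against 9.81 and 9.47 in the WT arrays. Both labelled arrays lay above both of the WT ones, and within either genotype the array of number 1 was the higher. Foxo1 differed by 0.46 log2 units (1.37-fold, SE 0.17, 95% interval −0.01 to 0.93), with 0.37 within number 1 and 0.55 within number 2. Its unadjusted p in limma was 0.0541 and its adjusted p 0.9998. With an array left out the difference was 0.29 to 0.63, and since the groups did not overlap its sign could not turn.

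Most markers of the B lineage differed in the same direction as Foxo1, and 1 differed the other way. Among the B-lineage list, 8 of 9 measured genes had the higher mean under the Hif1a-/- label, 6 of them without overlap (16.1% of all genes), and the median difference over the 9 was 0.88 log2 units. The ninth, the immunoglobulin heavy chain gene Ighm, lay lower without overlap, as 8.33% of all genes did. Its log2 signal was 9.99 and 10.21 in the arrays labelled Hif1a-/- against 11.50 and 11.53 in WT arrays, a difference of −1.41. Of the 9, 5 had an unadjusted p under 0.05, Ighm among them, against 0.727% of all genes. The log2 of their summed signal was 14.51 and 13.83 in the arrays labelled Hif1a-/-, against 13.60 and 13.55 in the WT arrays. Ebf1, a B-lineage transcription factor, had a log2 signal of 11.73 and 10.86 in the arrays labelled Hif1a-/-, against 10.02 and 9.76 in WT arrays. The smallest adjusted p of any gene between the genotypes was 0.9998, and the part of B-lineage RNA in the Foxo1 difference was not tested. In bulk RNA, a change in the number of cells of a type and a change in RNA per cell cannot be told apart.

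Foxo3, the FoxO factor required in mice to keep HSCs quiescent and low in oxidants, fell in number 2 in both genotypes. In number 2 its log2 signal was 10.46 (labelled Hif1a-/-) and 10.58 (WT), against 11.18 and 11.26 in number 1. Both arrays of number 2 lay below both of number 1, by nearly the same amount in each genotype. The difference of number 2 minus number 1 was −0.70 log2 units (SE 0.13, 95% interval −1.02 to −0.37, limma adjusted p = 0.0476), with −0.72 among the arrays labelled Hif1a-/- and −0.67 among the WT arrays. That call lay close to the threshold and ended with median centring (adjusted p = 0.134), with a trended and robust prior (0.0929), and with number alone in the fit without WT array 1 (0.288) or array 1 labelled Hif1a-/- (0.189). The summed stem and progenitor markers given above were lower in number 2 as well, and their part in the Foxo3 and Txnip differences was not tested. Between the genotypes Foxo3 averaged 10.82 ± 0.51 in the arrays labelled Hif1a-/- and 10.92 ± 0.48 in the WT arrays (SD, n = 2 each), a difference of −0.10 whose 95% interval ran from −1.11 to 0.92.

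The genes whose 4 values ran most like those of the FoxO factors were found among 9968 other genes brighter than the median, by the distance between log2 signals centred on each gene's mean. For Foxo1 they were Lrmp (distance 0.09 log2 units), Fam53b (0.09) and Mir679 (0.12), and 61 genes lay within 0.25. For Foxo3 they were Smox (0.03), which encodes spermine oxidase, Arhgap35 (0.03) and Exoc6b (0.05), and 414 genes lay within 0.25. Over 4 arrays such closeness is a description only.

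Among the enzymes that remove superoxide and hydrogen peroxide, catalase was higher in both arrays labelled Hif1a-/-, while the superoxide dismutases differed mostly within number 2. Cat, the peroxisomal enzyme that splits hydrogen peroxide, had log2 signals of 12.01 and 11.89 in the arrays labelled Hif1a-/-, against 11.81 and 11.54 in the WT arrays. The groups did not overlap. Its difference was 0.28 log2 units (1.21-fold, SE 0.15, 95% interval −0.14 to 0.69, unadjusted p = 0.138 and adjusted p = 0.9998 in limma), with 0.20 within number 1 and 0.35 within number 2. Like Foxo1, Cat was lower in number 2 than in number 1 in each genotype, by −0.12 and −0.27, without passing the test (adjusted p = 0.588).

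Sod2, the manganese superoxide dismutase of the mitochondrial matrix, had log2 signals of 11.08 and 10.79 in the arrays labelled Hif1a-/-, against 11.09 and 11.47 in the WT arrays. The arrays of number 1 were almost equal, and nearly the whole difference came from number 2. It was −0.35 log2 units over all arrays (SE 0.20, 95% interval −0.90 to 0.21), made up of −0.01 within number 1 and −0.68 within number 2, and became −0.15 without WT array 2 and −0.20 without array 2 labelled Hif1a-/-. Sod1, the copper-zinc enzyme of the cytosol, was at 12.40 and 12.35 in the arrays labelled Hif1a-/-, against 12.36 and 12.69 in the WT arrays. WT array 2 stood above the other 3. The Sod1 difference was −0.15 (95% interval −0.59 to 0.29), with 0.04 and −0.34 within the numbers, and its sign turned without WT array 2 (0.01).

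**Figure D2:**
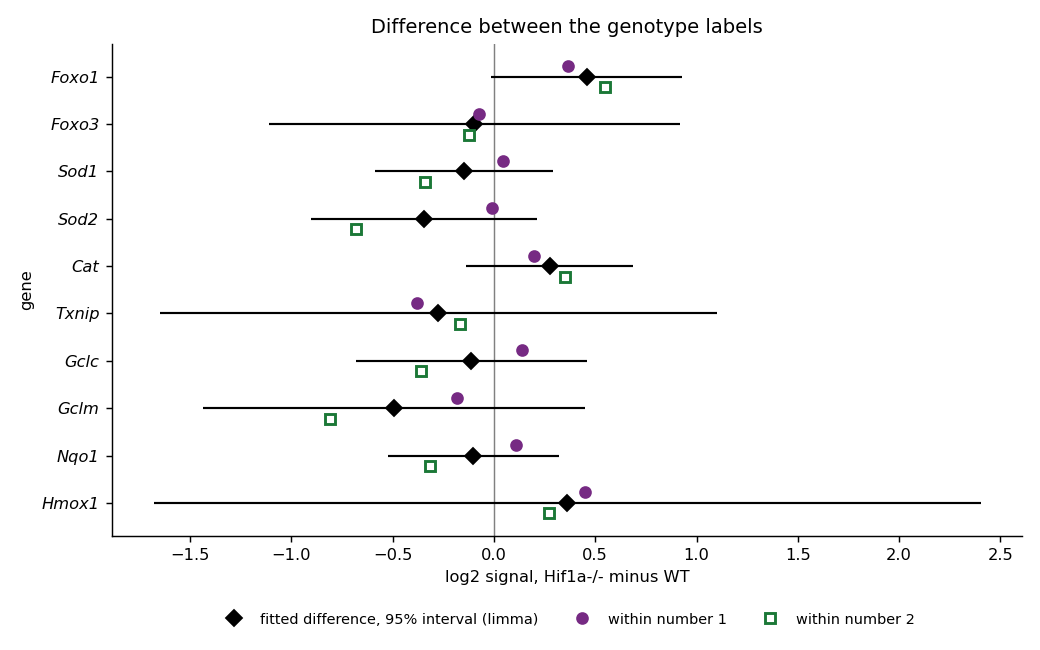
Difference in log2 signal between the arrays labelled Hif1a-/- and the WT arrays for each member. Diamonds and lines give limma's difference over 4 arrays with its 95% interval, circles the difference within number 1 and squares that within number 2. All 10 intervals include 0, and the squares lie left of the circles for all members except Foxo1, Cat and Txnip.

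Txnip, which binds and inhibits thioredoxin and limits glucose uptake, varied by number in the same direction as Foxo3. Its log2 signal in number 2 was 11.30 in the array labelled Hif1a-/- and 11.47 in the WT array, against 12.15 and 12.53 in number 1. The arrays of number 2 lay below those of number 1 without overlap. Txnip in number 2 minus number 1 came to −0.96 log2 units (SE 0.14, 95% interval −1.31 to −0.61, limma adjusted p = 0.0240), which is 1.94-fold higher in number 1. It was −0.85 among the arrays labelled Hif1a-/- and −1.07 among the WT arrays. The call ended with median centring (adjusted p = 0.0630) and, with number alone in the fit, without WT array 1 (0.201). Between the genotypes Txnip differed by −0.27 (SE 0.49, 95% interval −1.65 to 1.10), with −0.38 within number 1 and −0.17 within number 2.

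The subunits of glutamate-cysteine ligase, which makes the first bond of glutathione, had differences of opposite sign between the numbers, neither of them past the threshold. Gclm, the modifier subunit, had a log2 signal of 11.05 and 11.86 in number 2 (labelled Hif1a-/-, then WT), against 10.80 and 10.98 in number 1. Number 2 lay above number 1 without overlap, mostly through the WT array. Gclm in number 2 minus number 1 came to 0.56 log2 units (SE 0.19, 95% interval 0.09 to 1.04) and did not pass over all genes (adjusted p = 0.199), with 0.25 among the arrays labelled Hif1a-/- and 0.88 among the WT arrays. By genotype Gclm had the lowest difference of the 10 members, −0.49 (SE 0.34, 95% interval −1.44 to 0.45, unadjusted p = 0.219 and adjusted p = 0.9998 in limma), with −0.18 within number 1 and −0.81 within number 2. Without WT array 2 the difference was −0.06.

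Gclc, the catalytic subunit, was at 10.94 and 10.45 in the arrays labelled Hif1a-/-, against 10.80 and 10.81 in the WT arrays. The WT arrays differed by 0.00, while the labelled arrays lay on either side of them. The Gclc difference between the genotypes was −0.11 (95% interval −0.68 to 0.46), with 0.14 within number 1 and −0.36 within number 2. Between the numbers it was −0.25 (adjusted p = 0.591).

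Nqo1, a quinone reductase and common readout of NRF2, showed the smallest range of the members. Its log2 signal was 7.66 and 7.50 in the arrays labelled Hif1a-/-, against 7.55 and 7.82 in the WT arrays, a range of 0.32 over all arrays. The groups overlapped, and the order of the genotypes differed between the numbers (0.11 in number 1, −0.32 in number 2). Over all arrays Nqo1 differed by −0.10 (SE 0.15, 95% interval −0.52 to 0.32). Nqo1 was also the only member among the dimmest 40% of genes.

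Hmox1, the inducible haem oxygenase that opens the haem ring and releases iron and carbon monoxide, had the widest range of the members, 1.81 log2 units, and it split by array number. In number 2 it was at 10.29 in the array labelled Hif1a-/- and 10.01 in the WT array, against 8.93 and 8.48 in number 1. Both arrays of number 2 lay above both of number 1, as for 20.4% of all genes. Hmox1 in number 2 minus number 1 came to 1.45 log2 units (2.73-fold, SE 0.13, 95% interval 1.11 to 1.79, limma adjusted p = 0.00892), with 1.36 among the arrays labelled Hif1a-/- and 1.54 among the WT arrays. The call ended in 1 alternative, with number alone in the fit and WT array 1 left out (adjusted p = 0.0590). Macrophages that clear haem are rich in Hmox1. Adgre1, a macrophage surface marker, had a log2 signal of 9.37 and 9.50 in number 2 (labelled Hif1a-/-, then WT) against 7.81 and 7.23 in number 1, and the sums of the monocyte, mast cell and neutrophil lists given above were higher in number 2 as well. The part of such cells in the Hmox1 difference was not tested.

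Hmox1 was higher in the array labelled Hif1a-/- within each number, by 0.45 in number 1 and 0.27 in number 2. The difference over all arrays was 0.36 log2 units (SE 0.73, 95% interval −1.68 to 2.40), in a fit without the replicate number, so the split by number widens that interval. With the number as a block the unadjusted p in limma was 0.0409 and the adjusted p 0.980, against 0.648 and 0.9998 without it. The sign of the genotype difference turned without WT array 1 (−0.41) or array 2 labelled Hif1a-/- (−0.32). With an array left out the numbers are unequal between the genotypes, so the number difference of Hmox1 enters these values.

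Over the members, 3 of 10 differed between the numbers in limma (adjusted p under 0.05), 1 higher (Hmox1) and 2 lower in number 2 (Foxo3 and Txnip), against 3.29% of all genes higher and 2.27% lower. The numbers did not overlap for 4 of 10, with Hmox1 and Gclm above (20.4% of all genes) and Foxo3 and Txnip below (27.2% of all genes), and a share of 4 in 10 is no higher than the 47.6% of all genes in either direction. The count of 3 became 0 without WT array 1 and 6 without array 2 labelled Hif1a-/-, both with number alone in the fit, and 1 with median centring.

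**Figure D3:**
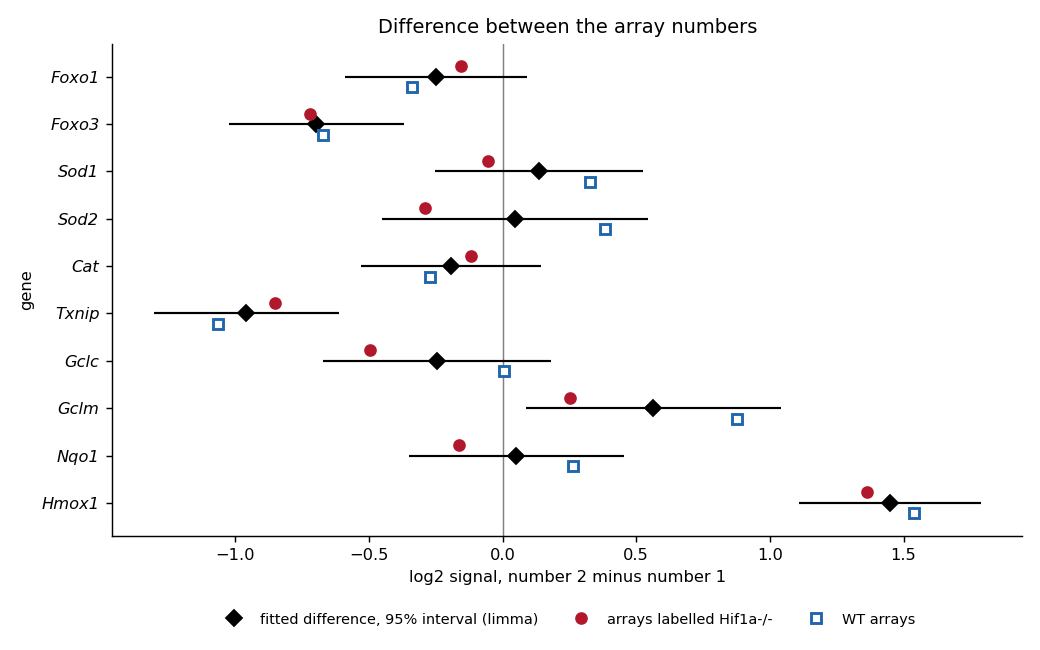
Difference in log2 signal between arrays of number 2 and number 1 for each member. Diamonds and lines give limma's difference with its 95% interval (genotype as a term), circles the difference among the arrays labelled Hif1a-/- and squares that among the WT arrays. Foxo3 and Txnip lie below 0 and Hmox1 above it in both genotypes, and the genotypes lie on opposite sides of 0 for Sod1, Sod2, Nqo1 and, with a WT difference of 0.00, Gclc.

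WT array 2 was the highest of the 4 arrays for 4 members (Sod1, Sod2, Gclm and Nqo1), and the array labelled Hif1a-/- of the same number was the lowest for 6 (Foxo3, Sod1, Sod2, Txnip, Gclc and Nqo1). Over all genes, 27.0% were highest in WT array 2 and 31.1% lowest in array 2 labelled Hif1a-/-. The members' median log2 signal was 11.01 and 10.62 in the arrays labelled Hif1a-/- and 11.03 and 11.14 in the WT arrays. The sign of the genotype difference was the same within both numbers for 7 of the 10 (48.4% of all genes), and the exceptions were Sod1, Gclc and Nqo1.

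The other FoxO genes and the regulators of FoxO held no called difference between the genotypes, and their differences ran from −0.33 to 0.55 log2 units, the upper end being Sgk1. Of 37 listed, 35 were measured, 15 with the higher and 20 with the lower mean under the Hif1a-/- label, 0 past the threshold. Their median of −0.03 log2 units was 0.01 without WT array 1. Mdm2, an E3 ligase that also acts on FoxO, differed by 0.28 (SE 0.20) and the PI3K catalytic gene Pik3cd by 0.24 (SE 0.19). The AKT kinases that exclude FoxO from the nucleus differed by −0.19 (Akt2) and −0.14 (Akt1). Between the numbers 2 of these 35 passed, or 5.71%, close to the 5.56% of all genes. With number alone in the fit that count was 0 without WT array 1, 9 without WT array 2 and 11 without array 2 labelled Hif1a-/-. Sgk1, a kinase that phosphorylates FoxO3, rose in number 2 by 1.53 log2 units (SE 0.15, limma adjusted p = 0.00996), with log2 signals of 9.87 and 9.50 in number 2 against 8.52 and 7.79 in number 1. Sirt3, a mitochondrial deacetylase that activates SOD2, was lower in number 2, by −1.12 log2 units (SE 0.13, adjusted p = 0.0148). Without WT array 1 neither call held (adjusted p = 0.0826 for Sgk1 and 0.124 for Sirt3), nor did that of Sirt3 with median centring (0.0528). Sirt2 and Igf1r differed by 0.38 and −0.68 without passing (adjusted p = 0.208 and 0.0537).

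Among FoxO target genes, Rag1 stood apart between the genotypes and many genes differed between the numbers. Of 42 measured (45 listed) 16 had the higher and 26 the lower mean under the Hif1a-/- label, 0 past the threshold and 1 at an unadjusted p under 0.05, with a median difference of −0.10. Rag1, a recombinase gene under FoxO1 in early B cells, had log2 signals of 10.31 and 10.41 in the arrays labelled Hif1a-/-, against 9.05 and 9.19 in WT arrays, a difference of 1.24 (SE 0.12). Rag2, its partner, differed by 0.69 (SE 0.46). The B-lineage sums given above were higher in the same arrays, and their part was not tested. Cited2, which is also induced by HIF-1 and restrains it, differed by −0.27 and the autophagy gene Map1lc3b by −0.35. Between the numbers 12 of the 42 passed (28.6%), 7 higher and 5 lower in number 2, against 5.56% of all genes (3.29% higher and 2.27% lower), a share that counts dim genes too. Bcl6, a transcriptional repressor, rose by 1.88 log2 units (SE 0.17, adjusted p = 0.00869) and Klf6, a zinc-finger factor, by 1.23 (SE 0.14, adjusted p = 0.0150). Sesn1, a stress-induced inhibitor of mTORC1, differed by −1.57 (SE 0.17, adjusted p = 0.0127) and the death ligand gene Tnfsf10 by −1.28 (SE 0.13, adjusted p = 0.0114), both lower in number 2. The call of Klf6 ended without WT array 1 (0.0783), as it did when array 1 labelled Hif1a-/- was dropped (0.0521). That of Sesn1 ended with median centring (0.0544). With number alone in the fit the 12 became 3 without WT array 1, 4 without array 1 labelled Hif1a-/-, 24 without WT array 2 and 22 without array 2 labelled Hif1a-/-, and with median centring 3.

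Most regulators and targets of NRF2 had the lower mean under the Hif1a-/- label, none past the threshold, where 9843 of all 19938 genes had the lower mean. All 8 stem and progenitor markers of the gate and all 5 megakaryocyte markers also had the lower mean there (median −0.22 for each list), 0 of them without overlap. The megakaryocyte median was 0.19 within number 1 and −0.44 within number 2. Of the erythroid markers 7 of 9 were lower, whereas 9 of 14 neutrophil, 8 of 9 B-lineage and 6 of 8 T and NK cell markers were higher. The part of such cells was not tested. The lists were bright, with median log2 signals per array of 10.12 to 10.45 (regulators) and 9.27 to 9.81 (targets), against 8.538 to 8.565 for all genes. The median genotype difference of all genes was 0.00, and −0.05 without the dimmest 40% of genes. The part of brightness in the lower means was not tested. Nfe2l2, which encodes NRF2, had log2 signals of 11.18 and 10.96 in the arrays labelled Hif1a-/-, against 11.37 and 11.60 in the WT arrays. The groups did not overlap, with the labelled pair below the WT pair as for 8.33% of all genes. The Nfe2l2 difference was −0.42 log2 units (SE 0.15, adjusted p = 0.9998 in limma), which was −0.19 for number 1 and −0.64 for number 2. Its partner Keap1 differed by −0.13 (SE 0.11), and of the NRF2-opposing or binding factors Bach2 differed by 0.34 and Mafg by 0.05 (−0.04 with median centring). Of 15 regulators 4 had the higher and 11 the lower mean, 0 past the threshold. Their median of −0.09 was 0.03 within number 1 and −0.20 within number 2, with the same sign in both for 5 of the 15, and was −0.00085 without array 2 labelled Hif1a-/-. Between the numbers 0 of the 15 passed in limma, against 5.56% of all genes, and with number alone in the fit 2 passed without WT array 2 and 5 without array 2 labelled Hif1a-/-. Among them Sqstm1 and Dpp3, which compete for KEAP1, each differed by 0.23, and Btrc, which marks NRF2 for degradation, by −0.64 (adjusted p = 0.0626). Btrc passed without the genotype term (0.0286), with quantile normalization (0.0244) and with cyclic loess (0.0462), the 1 regulator to do so.

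Of 31 measured NRF2 targets other than the members (32 listed), 6 had the higher and 25 the lower mean under the Hif1a-/- label, 0 past the threshold and 1 at an unadjusted p under 0.05. Their median was −0.11 log2 units, −0.02 within number 1 and −0.16 within number 2, and its sign turned without WT array 2 (0.09) or array 1 labelled Hif1a-/- (0.02). The glutathione transferase genes gave both ends: Gstm1 differed by −0.51 (SE 0.28) and Gstm5 by −0.42 (SE 0.23). Both lay lower in the arrays labelled Hif1a-/- without overlap, as for 8.33% of all genes. Gsta3 differed by 0.34 (SE 0.11) and lay higher there without overlap, as for 16.1% of all genes. The transporter gene Abcc5 differed by 0.17 (SE 0.17). Members of the glutathione transferase families resemble each other in sequence, so a probe set may not separate them with certainty. Between the numbers 4 of the 31 passed (12.9%, against 5.56% of all genes), all higher in number 2. With number alone in the fit, that count fell without either array of number 1 and rose without either array of number 2. Gsr, the glutathione reductase, rose by 1.15 log2 units (SE 0.13, adjusted p = 0.0136) and Idh1, a cytosolic source of NADPH, by 1.17 (SE 0.13, adjusted p = 0.0147). The Idh1 call ended without WT array 1 (0.0597) and the Gsr call without array 1 labelled Hif1a-/- (0.0634). Cbr1 and Abcc1 differed by −0.56 and −0.37 without passing (adjusted p = 0.230 for each).

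The other glutathione, thioredoxin and antioxidant genes numbered 37 measured of 40 listed, 8 with the higher and 29 with the lower mean under the Hif1a-/- label, 0 past the threshold. The median of −0.14 log2 units was 0.04 within number 1 and −0.28 within number 2, and turned to 0.01 without WT array 2. Arrdc4, an arrestin-family relative of Txnip, differed by −0.46 (SE 0.23) and the mitochondrial copper chaperone gene Sco1 by −0.29 (SE 0.19), while Chac1 and Ucp3 differed by 0.15 and 0.14. Between the numbers 8 of the 37 passed (21.6%, against 5.56% of all genes), 5 higher and 3 lower in number 2. With number alone in the fit, that count fell without either array of number 1 and rose without either array of number 2. The metallothioneins, small metal-binding proteins that also take up radicals, showed the widest split between the numbers of any gene in these pathway lists. Mt2 had log2 signals of 11.83 and 12.33 in number 2, against 9.18 and 9.08 in number 1, a difference of 2.95 (SE 0.18, adjusted p = 0.00403). Mt1 rose by 2.66 (SE 0.15, adjusted p = 0.00362). Msrb3, a methionine sulfoxide reductase, and the gamma-glutamyl transferase gene Ggt5 were lower in number 2, by −1.16 (SE 0.17, adjusted p = 0.0266) and −0.89 (SE 0.14, adjusted p = 0.0282). Both calls ended with median centring (0.0995 and 0.0703) and without either array of number 1.

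Sources of oxidants showed no called difference between the genotypes, while 7 of them rose in number 2. Of 23 measured (26 listed) 15 had the higher and 8 the lower mean under the Hif1a-/- label, 0 past the threshold. Their median of 0.03 log2 units turned to −0.04 if WT array 1, or array 2 of the Hif1a-/- label, was dropped, and lay below 0 with quantile normalization, median centring and cyclic loess. Maoa, a monoamine oxidase, differed by −0.37 (SE 0.16) and the neutrophil myeloperoxidase gene Mpo by −0.21, while Nos3 and Alox12 differed by 0.19 and 0.12. Between the numbers 7 of the 23 passed (30.4%, against 5.56% of all genes), all higher in number 2. Cybb, the catalytic subunit of the phagocyte NADPH oxidase, rose by 2.38 log2 units (SE 0.15, adjusted p = 0.00403). Xdh, the xanthine oxidoreductase, had log2 signals of 10.52 and 10.23 in number 2, against 8.54 and 8.15 in number 1, a difference of 2.03 (SE 0.13, adjusted p = 0.00413), whereas Nox1 of non-phagocytic cells differed by −0.19 (adjusted p = 0.574). Cybb and Xdh moved in the same direction as the neutrophil, monocyte and mast cell sums given above, whose part was not tested. Mpo stands both in this list and among the neutrophil markers. With number alone in the fit, the 7 became 4 without WT array 1.

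**Figure D4:**
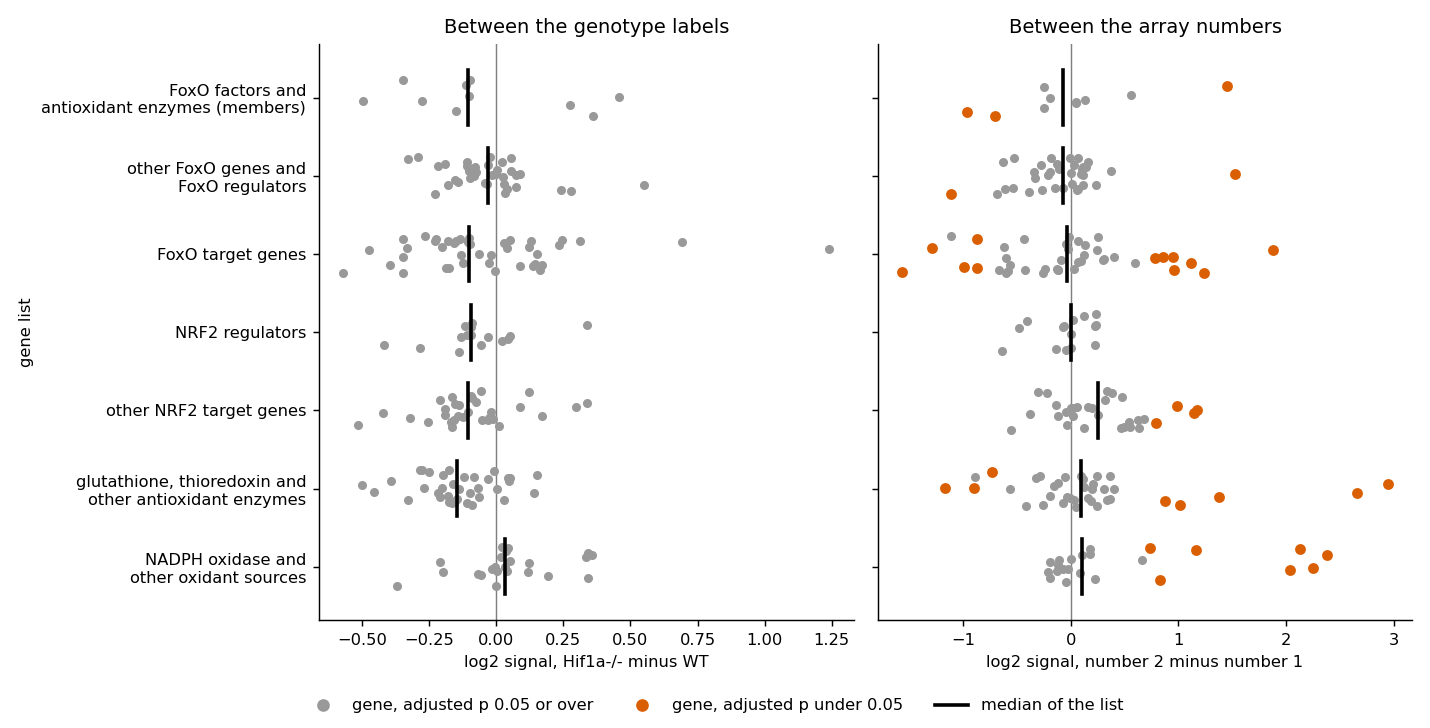
Differences in log2 signal of the members and of the measured genes of 6 related lists, on the left between the arrays labelled Hif1a-/- and the WT arrays and on the right between arrays of number 2 and number 1. Each point is a gene, orange where limma's adjusted p was under 0.05, and black bars are list medians. No point is orange on the left, where the list medians lie between −0.14 and 0.03, and the orange points on the right lie on both sides of 0 for the members, the other FoxO genes and regulators, the FoxO targets and the other antioxidants.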

How the data were processed

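The authors deposited log2 signals per probe set, made with Affymetrix Expression Console 1.1 and RMA according to the submitters' processing notes. The base of the log was read from the values, 3.08 to 14.88. RMA is meant to align the arrays' distributions, so a shift shared by all genes may not show, but the deposited ones still differed. Over all probe sets the median was 8.32 and 8.35 in the arrays labelled Hif1a-/- (numbers 1 and 2) and 8.31 and 8.19 in the WT arrays. The interquartile range was 2.60 and 2.49 in the former and 2.61 and 2.78 in the latter, so WT array 2 had the lowest median and the widest spread. Which genome build was used is not stated in the labels. Of 35556 probe sets, 21789 carried a single symbol in GEO's table for the array, 1621 more than 1, and 12146 are unnamed here. Each gene (19938) was read from its brightest probe set by mean signal, a choice that arose for 999.

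Two-sided tests used limma 3.58.1 under R 4.3.3, without covariates for genotype and with genotype as a term for array number. Benjamini-Hochberg adjustment covered every gene, at a threshold of 0.05. The number of arrays limits the precision: the median SE was 0.15 log2 units for genotype and 0.136 for number. Members and lists were chosen with earlier results of these data known, so list counts are descriptions. Named are the members and, per list and direction, the 2 genes with the smallest p in each comparison (Kit, Ebf1 and Adgre1 stand as defining markers, and Ighm was chosen after its values were seen). Alternatives covered a replicate block, number without genotype, leaving out arrays, 3 other scalings (quantile, median, cyclic loess), dropping the dimmest 40% of genes, averaging probe sets, and a trended robust prior. The fits were tested on simulated data with independent noise. For the genotype fit these held no difference between array numbers, unlike the deposited arrays, so that test does not cover this setting. RefSeq promoters were found for 8 of 10 members.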

Additional observations from a re-analysis of the deposited data

How the results depend on the processing

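Between the genotypes 0 genes, and 0 of the members, passed under every alternative run. The count at an unadjusted p under 0.05 was 145 and ranged from 39 (no dim genes) to 622 (without array 1 labelled Hif1a-/-). The labels do not say that a replicate number marks a shared animal or day. The deviations of same-numbered arrays from their group means correlated at 0.669, and with the replicate number as a block the smallest adjusted p was 0.536, that of the members 0.980 and the unadjusted count 478 (2.40% of genes). Of the members 3 then had an unadjusted p under 0.05, Foxo1 (0.0179), Hmox1 (0.0409) and Gclm (0.0443), against 0 without the block. No adjusted call changed. The alternatives that leave out an array in the number comparison carry no genotype term, were chosen after seeing the data, and assume that the lone array of a number varies like the other pair; with the term no residual degrees of freedom remained. Of 109 alternative values of the members between genotypes 100 kept sign and call and 9 changed sign, all 9 with an array left out. Leaving out an array makes the numbers unequal between the genotypes. With no number term in that fit, a difference between the numbers then enters the genotype difference. Of the members that changed sign, Hmox1, Foxo3 and Txnip had the same sign within both numbers, and Sod1, Gclc and Nqo1 did not. The block, the dropping of dim genes, the averaging of probe sets (1 per member) and the prior cannot change a member's genotype difference. No member was called between genotypes, so none could lose a call, and the count of 100 does not measure stability. Between numbers 92 of 109 kept both, 7 lost the call, 4 gained it and 6 changed sign. The 1108 genes between numbers became 1777 with quantile normalization (53.9% of them higher in number 2) and 440 with median centring (76.8%, against 59.2%), and 319 to 4661 with an array left out (319 without WT array 1, 458 without array 1 labelled Hif1a-/-, 4661 without WT array 2, 4602 without array 2 labelled Hif1a-/-). The 3 members called became 1 with median centring and 0 to 6 with an array left out. With an array left out, genotype differences ran from −0.46 to 0.26 for Foxo3, −0.81 to 0.26 for Txnip, −0.41 to 1.13 for Hmox1, −0.31 to 0.015 for Sod1, −0.23 to 0.030 for Nqo1, −0.36 to 0.14 for Gclc, −0.015 to 0.35 for Abcc5, −0.00085 to 0.10 for Mafg and −0.011 to 0.31 for Chac1. Number differences ran from −0.52 to 0.026 for Foxo1, −0.034 to 0.31 for Sod1, −0.29 to 0.39 for Sod2 and −0.11 (−0.0043 without WT array 1) to 0.21 for Nqo1. Sod2 between numbers was −0.026 with quantile normalization, and Mafg between genotypes −0.037 with median centring. The genotype median of the oxidant sources was −0.064 with quantile normalization, −0.056 with median centring, −0.043 with cyclic loess and −0.040 to 0.11 with an array left out, and that of the other antioxidants −0.23 to 0.012. Without array 2 labelled Hif1a-/- the number calls gained Foxo1, Sod2 and Gclm (adjusted p = 0.0244, 0.0311 and 0.000174 in limma), and without WT array 2 Gclc (0.0234). Calls of Sirt3, Sesn1, Msrb3 and Ggt5 ended with median centring (0.0528, 0.0544, 0.0995 and 0.0703). The cause of these changes in calls was not tested.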
